A study of Homo sapiens with 4 samples.

Results

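SMARCB1 peaks that the authors placed in 5' untranslated regions (5' UTRs) numbered 203 of the 4453 peaks in the deposited SMARCB1 list. They were chosen by the authors' position class alone, which reads 5' UTR for these peaks, and no measured value entered the choice. The peaks came from SK-Hep1, a human liver cancer cell line, in which SMARCB1 and acetylated lysine 27 of histone H3 (H3K27ac) were mapped by ChIP-seq, sequencing of the DNA that an antibody pulls down from sheared chromatin. H3K27ac was mapped in cells that stably expressed an shRNA against SMARCB1 (the knockdown) and in cells that expressed a control shRNA (the control), both populations selected with puromycin. The series was laid out to compare H3K27ac between the knockdown and the control. The labels do not say which shRNA, if any, the cells of the SMARCB1 ChIP carried, and the loss of SMARCB1 protein was not analysed here.

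SMARCB1 is a core subunit of the SWI/SNF complexes, which use ATP to slide or eject nucleosomes, and its loss defines rhabdoid tumours. H3K27ac marks active promoters and enhancers and commonly flanks the open stretch at a transcription start. A 5' UTR is the transcribed stretch between the start of a messenger RNA and its first codon, so the part of it nearest the start lies just inside the promoter.

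Stretches of 30 bases from before the starts of member genes are given as examples, each chosen to hold a motif. They do not measure the base composition around the peaks, and the PITX1 stretch lies outside its SMARCB1 peak. They were taken from the RefSeq promoter table, build GRCh38.p14, and are written 5' to 3' on the gene's strand. The first 5 belong to genes with high SMARCB1 values and carry in capitals GGGCGG or its reverse complement CCGCCC, the GC box bound by SP and KLF factors. Further matches in the stretches of C17orf58, MYO1D and PFKFB3 are not marked.
C17orf58, chr17:67993629-67993658, minus strand: cccgccgcccggCCGCCCgcgctcgccacc
MYO1D, chr17:32877187-32877216, minus strand: gccgggaggcccGGGCGGggcggagccggg
PITX1, chr5:135034328-135034357, minus strand: tggggctggattCCGCCCgcgctccctcgc
PFKFB3, chr10:6144891-6144920, plus strand: ctcgcccgccccgCCGCCCgcaggcgcccc
PIM3, chr22:49960698-49960727, plus strand: tcccgattcgccCCGCCCccgcggagggat

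The next 3 carry ATTGG in capitals, the reverse complement of the CCAAT box. E2F7 and GBF1 had much shorter acetylated peaks in the knockdown, and AGRP had no acetylated peak at its SMARCB1 peak in either library. A link between the motif and acetylation was not tested, and CCAAT stood in 34.6% of member promoters, against 34.7% of all.
E2F7, chr12:77065607-77065636, minus strand: ccggccgccgctgATTGGtggattctcaaa
GBF1, chr10:102245462-102245491, plus strand: gtgcaaagctatgATTGGctgcgcgcggca
AGRP, chr16:67483704-67483733, minus strand: aacctcaccccaaATTGGagataggcactc

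The last 2 show in capitals the ETS-type motif CCGGAAG and the cyclic AMP response element TGACGTC.
XPOT, chr12:64404307-64404336, plus strand: gcgcctcgccgcCCGGAAGcgccggccgct
RALGAPA1, chr14:35809349-35809378, minus strand: gtcaagaactctTGACGTCagaaggcggtt

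Each group held 1 library, so the differences below have no replicate check and no test. Intervals are 95% intervals, Wilson for shares and exact binomial for medians, and they cover the counting of peaks only. The knockdown H3K27ac library had 10203310 tags and an estimated fragment length of 158 bp, against 13235203 tags and 190 bp in the control. Its 34073 peaks covered 0.892 times the length that the 35307 control peaks covered, counted on the autosomes and X. As a check of the labelled line, H3K27ac within 1 kb of a gene end was looked up at marker genes. Of the 4 hepatocyte genes ALB, APOA1, HNF4A and FOXA2, 1 carried it in the knockdown (FOXA2, 410 bp) and 0 in the control. It was found in neither library at the 4 endothelial genes PECAM1, CDH5, VWF and KDR, and in both at the 3 mesenchymal genes VIM, CD44 and CAV1.

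The 203 peaks belonged to 203 different genes and lay on all 22 autosomes and X, with 20 on chromosome 1, 17 on chromosome 11 and 1 on chromosome 21. The deposited list does not pair peaks with genes, so each peak was given the protein-coding gene whose record holds its centre (187 peaks) or the nearest one (16 peaks). Of the members, 117 were exactly 500 bp wide and the widest was 1489 bp. The number that the authors gave each peak (no unit is stated in the labels or the file) ran from 8.45 to 39.1 with a median of 13.2. It had the same median, 13.2, in the 1299 peaks of the promoter-TSS class, and 11.6 over all 4453 peaks. Another SMARCB1 centre lay within 2 kb for 6 members and within 10 kb for 16, and the median distance to the next centre was 125524 bp. The same counts over all SMARCB1 peaks are not given here, so these describe the members only.

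Nearly every 5' UTR peak sat on acetylated chromatin, in the knockdown as in the control. In the knockdown, 195 of 203 (96.1%, interval 92.4 to 98.0%) overlapped an H3K27ac peak by at least 1 base, beside 69.0% of all SMARCB1 peaks. In the control, 197 of 203 did (97.0%, 93.7 to 98.6%), beside 70.6% of all SMARCB1 peaks. Both lists held a peak at 193 members, and the remaining 10 are described singly further on. The overlap was near that of the promoter-TSS class, which reached 96.2% in the knockdown and 96.7% in the control. It was far above the exon class, at 57.3% in the knockdown and 58.6% in the control, and the intron class, at 59.3% in the knockdown and 61.9% in the control. The intervals of the 5' UTR class and of those gene-body classes did not overlap.

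**Figure D1:**
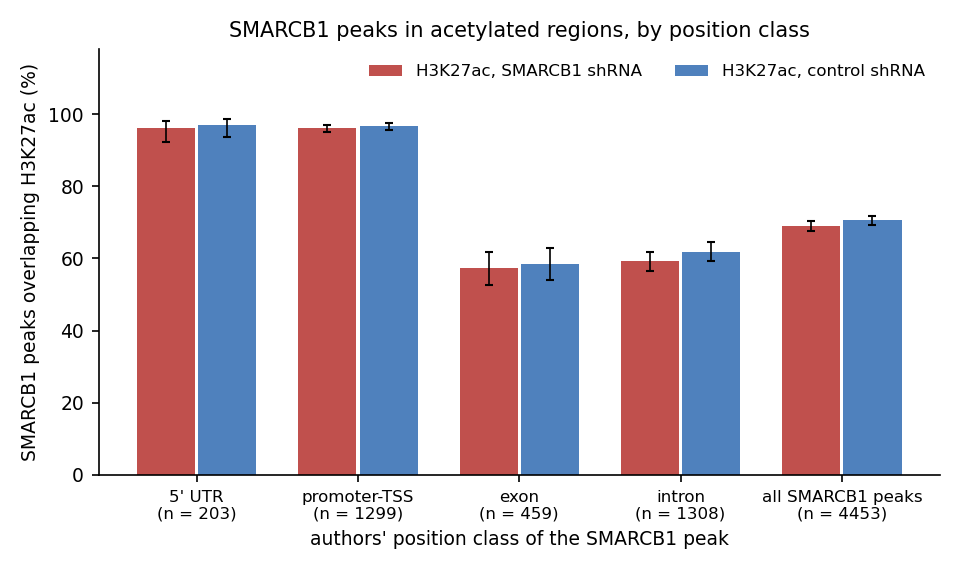
Share of SMARCB1 peaks that overlap an H3K27ac peak (percent, vertical axis) by the authors' position class, with a bar for the knockdown and a bar for the control library and 95% Wilson intervals as error bars. The 5' UTR class (96.1% in the knockdown, 97.0% in the control) stands beside the promoter-TSS class and above the exon and intron classes.

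Acetylation usually covered a member from end to end. The whole SMARCB1 peak lay inside acetylated peaks for 176 members in the knockdown (86.7%, 81.3 to 90.7%) and for 190 in the control (93.6%, 89.4 to 96.2%). The centre lay inside for each of the 195 members that overlapped in the knockdown and each of the 197 that overlapped in the control. In the promoter-TSS class the whole peak was covered for 86.5% in the knockdown and 90.7% in the control. The lower tag number and shorter fragments of the knockdown library go with the lower share, and their part in the result was not tested.

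The 5' UTR peaks lay mostly a short way inside the gene. For 171 member genes the RefSeq promoter table gives a start and strand, and 137 of these peaks (80.1%, 73.5 to 85.4%) had their centre downstream of the nearest listed start, against 43.5% of 1071 promoter-TSS peaks. The median distance was 145 bp downstream (interval 114 to 170 bp), against 32 bp upstream for the promoter-TSS class (listed as -32 bp). The position class itself puts these peaks after the start, so this difference restates the rule. The band from over 100 to 500 bp downstream held 87 members, the band from 1 to 100 bp held 32, and 32 centres lay upstream of the start. Only 9 centres were more than 2000 bp from a listed start of their gene, and other starts of those genes may be missing from the table. A start of another gene or transcript on the opposite strand lay within 1 kb of 37 of the 171 centres (21.6%, 16.1 to 28.4%). In the promoter-TSS class this was 391 of 1071 (36.5%, 33.7 to 39.4%), and the intervals did not overlap. The search ran from the peak centre, which the position class puts farther downstream in members, and the part of this in the difference was not tested.

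Within the acetylated peak, the members sat close to the middle, as SMARCB1 peaks did in general. On a scale from 0 at the upstream edge to 1 at the downstream edge, the median centre was at 0.482 in the knockdown (0.441 to 0.516, n = 166) and at 0.495 in the control (0.458 to 0.522, n = 167). Over all SMARCB1 peaks the medians were 0.477 in the knockdown and 0.473 in the control, and in the exon class 0.518 in the knockdown and 0.513 in the control. Promoter-TSS peaks lay nearer the upstream edge, with medians of 0.417 in the knockdown and 0.423 in the control. Intron peaks lay nearer the downstream edge, with medians of 0.555 in the knockdown and 0.549 in the control. The central stretch of the acetylated peak, from 0.333 to 0.667 of its length, held 107 of 166 members in the knockdown (64.5%, 56.9 to 71.3%) and 122 of 167 in the control (73.1%, 65.9 to 79.2%). The same stretch held 56.6% of promoter-TSS peaks in the knockdown and 59.3% (56.2 to 62.2%) in the control, so that these intervals were apart in the control library and overlapped in the knockdown library. It held 57.3% of all SMARCB1 peaks in the knockdown and 59.3% in the control. In the exon class it held 59.8% in the knockdown and 64.6% (57.6 to 71.0%) in the control, which overlapped the interval of the 5' UTR class. The position class itself sets where a peak lies from the start, with medians of 145 bp for 5' UTR and -32 bp for promoter-TSS peaks. The part of this in the differences between classes was not tested.

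**Figure D2:**
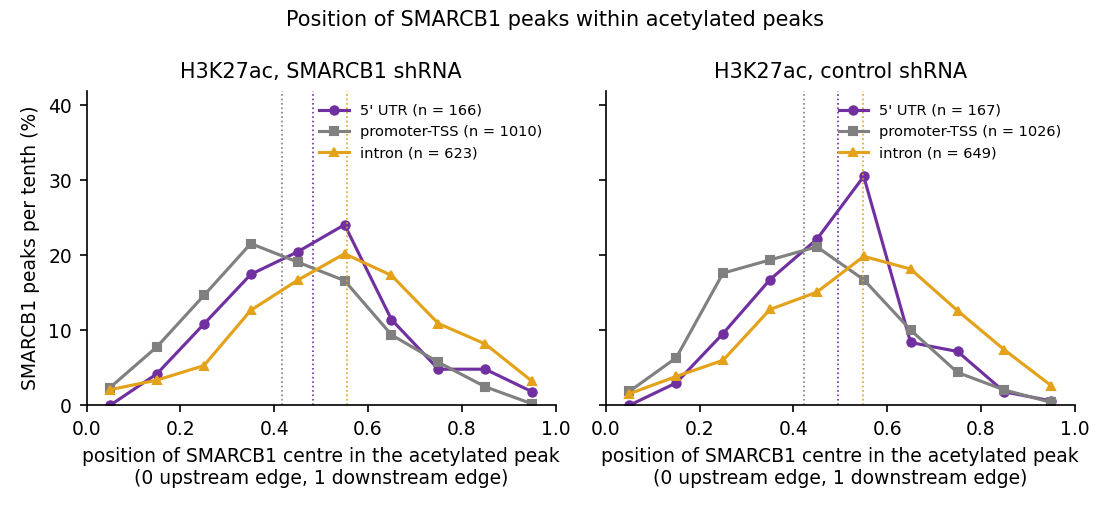
Relative position of SMARCB1 peak centres inside their acetylated peak (horizontal axis, 0 is the upstream and 1 the downstream edge) against the percent of peaks in each bin (vertical axis), by position class, with the knockdown in the left panel, the control in the right one and medians as dotted lines. The 5' UTR peaks gather around the middle, with medians of 0.482 in the knockdown and 0.495 in the control, while promoter-TSS peaks lean upstream. The position class itself places promoter-TSS peaks farther upstream.

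In base pairs, the distance from a member's centre to the nearest edge of its acetylated peak had a median of 795 bp in the knockdown (671 to 895 bp) and 881 bp in the control (822 to 984 bp). These intervals overlapped. All SMARCB1 peaks had nearly the same medians, 792 bp in the knockdown and 878 bp in control cells, so the distance was not particular to the 5' UTR class. Distances ran from 39 to 3320 bp in the knockdown, and from 81 to 3758 bp in the control. A centre lay within 250 bp of an edge for 14 of 195 members in the knockdown (7.18%) and for 6 of 197 in the control (3.05%). Over all SMARCB1 peaks this was 7.43% in the knockdown and 5.29% in the control, and in the promoter-TSS class 5.32% in the knockdown and 3.30% in the control. Acetylation reached about equally far to each side: 999.5 bp upstream and 1030.5 bp downstream in the knockdown, against 1081 bp upstream and 1141 bp downstream in the control, as medians over 166 members in the knockdown and 167 in the control.

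MAPRE3, a microtubule end-binding protein, had its centre 296 bp from the nearest edge in the knockdown, against 81 bp in the control, the shortest control distance. SDC2, the heparan sulfate proteoglycan syndecan 2, was 103 bp from the edge in the control and had no acetylated peak in the knockdown. GATM, the first enzyme of creatine synthesis, was at 206 bp in the knockdown, against 215 bp in the control. The peak at GATM was itself narrow, 627 bp wide in the knockdown, against 501 bp in the control, with 215 bp upstream and 285 bp downstream of the centre in the control. At the other end, SLC18A3, the vesicular acetylcholine transporter, was 3320 bp from an edge in the knockdown, against 3758 bp in the control. DCBLD2, a neuropilin-like membrane receptor, was at 1343 bp in the knockdown, against 3315 bp in the control. KCMF1, a ubiquitin ligase, was at 2844 bp in the knockdown, against 2947 bp in the control. SLC18A3 and KCMF1 thus lay deep inside acetylated peaks in both libraries, and DCBLD2 did so mainly in the control.

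**Figure D3:**
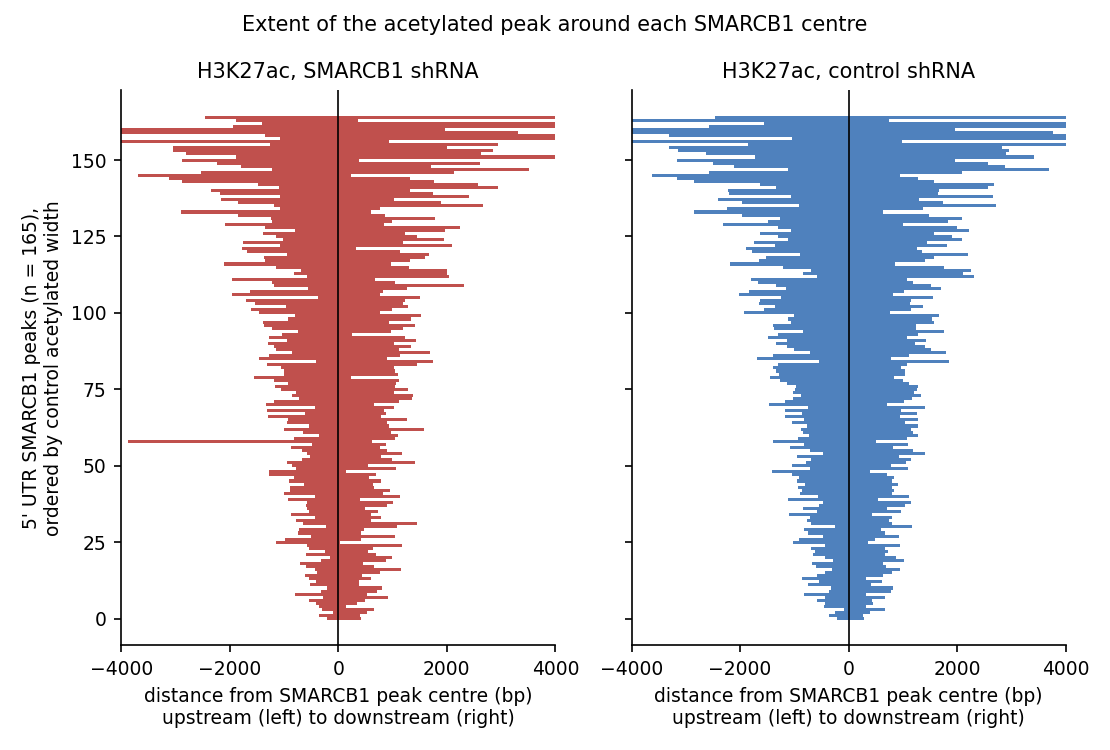
Reach of the acetylated peak to each side of the SMARCB1 centre (bp, horizontal axis, upstream to the left, drawn to 4000 bp at most) for the 165 members with a listed strand and a peak in both libraries, 1 row a member in order of control width, knockdown left and control right. Medians over these members were 1001 bp upstream and 1032 bp downstream in the knockdown, and 1081 bp upstream and 1143 bp downstream in the control.

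The acetylated peaks at 5' UTR members were slightly narrower in the knockdown than in the control. Their median width was 2164 bp in the knockdown (interval 1873 to 2312 bp, n = 195) and 2322 bp in the control (2131 to 2575 bp, n = 197). Over all H3K27ac peaks the medians were 1601 bp in the knockdown, against 1707 bp in the control. Among the 193 members with a peak in both libraries, 145 had a narrower peak in the knockdown (75.1%), beside 78.0% of all SMARCB1 peaks with both, and 48 had a wider one (24.9%), beside 21.9%. The median log2 ratio of widths, knockdown over control, was -0.12 (-0.15 to -0.08). It was -0.14 for the promoter-TSS class, -0.14 for all SMARCB1 peaks and -0.13 for all control H3K27ac peaks with a knockdown peak, so the members' shift was no larger than that of the lists as a whole. Tag number (0.771 times the control's in the knockdown) and fragment length differed in the same direction, and their part in the result was not tested.

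The narrowing came from both sides. Among 165 members with a listed strand and a peak in both libraries, the upstream edge lay nearer the centre in the knockdown for 113 and the downstream edge for 114. Both edges were nearer for 78 members and both farther for 16. The same counts over all SMARCB1 peaks are not given here. The median shift was -91 bp upstream and -102 bp downstream, knockdown minus control, beside -108 bp upstream and -118 bp downstream over all SMARCB1 peaks. Within 2 kb of the centre, which leaves out any length stitched on beyond that window, acetylated length had a median of 2097 bp in the knockdown, against 2255 bp in the control. The median of the members' own differences was -139 bp (-189 to -99 bp). It was -160 bp in the promoter-TSS class and -44 bp (-59 to -27 bp) over all SMARCB1 peaks, of which 28.3% had no acetylated peak in either library.

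Width at a member was much alike in the knockdown and the control and bore little relation to the SMARCB1 value. Across the 193 members the knockdown and control widths had a Spearman correlation of 0.917, given as a description of 2 lists called against the same input. The SMARCB1 value had a correlation of 0.0025 with knockdown width (n = 195), -0.011 with control width (n = 197) and -0.0046 with the log2 width ratio (n = 193).

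**Figure D4:**
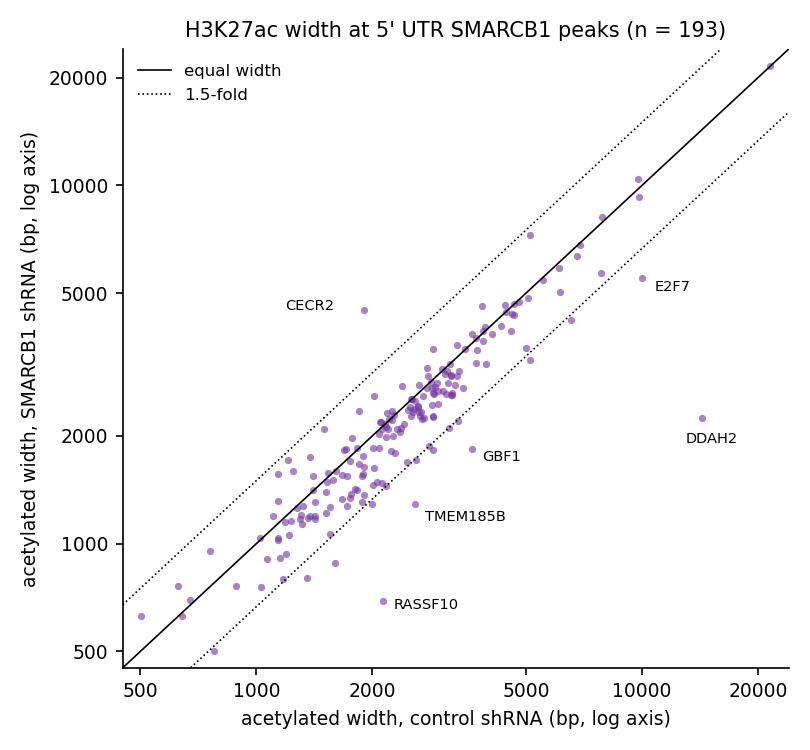
Width of the acetylated peak at each 5' UTR member in the knockdown (vertical axis) and in the control (horizontal axis), in bp on log axes, with 1 point for each of 193 members. Most points (145) lie below the line of equal width, narrower in the knockdown, 15 lie past 1.5-fold on that side and 1, CECR2, past 1.5-fold on the other.

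A width more than 1.5-fold lower in the knockdown was found at 15 of 193 members (7.77%, 4.77 to 12.4%), beside 10.3% of all SMARCB1 peaks, and more than 1.5-fold higher at 1 member (0.518%), beside 1.42%. These shares were near or under the background. DDAH2, of the dimethylarginine dimethylaminohydrolase family, had 2245 bp in the knockdown, against 14313 bp in the control. That control peak also held 3 other SMARCB1 peaks, and within 2 kb of the member's centre the acetylated length was 2245 bp in the knockdown, against 2749 bp in the control. The change of width at DDAH2 thus lay mostly outside the neighbourhood of its 5' UTR peak. E2F7, an atypical E2F repressor of the cell cycle, was alike in this, with widths of 5498 bp in the knockdown, against 10025 bp in the control but 3404 bp in the knockdown, against 3559 bp in the control within 2 kb.

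At other members the difference lay within 2 kb of the SMARCB1 centre. GBF1, an exchange factor for ARF GTPases at the Golgi, had 1842 bp of acetylation within 2 kb in the knockdown, against 3378 bp in the control, the largest loss among members with a peak in both libraries. RASSF10, a Ras-association domain protein, had 692 bp in the knockdown, against 2131 bp in the control. TMEM185B, a transmembrane protein, had 1291 bp in the knockdown, against 2577 bp in the control. PDIA4, a disulfide isomerase of the endoplasmic reticulum, had 2205 bp in the knockdown, against 3324 bp in the control. SLC35E2B, of a solute carrier family, had 2102 bp in the knockdown, against 3156 bp in the control. At these 5 genes the shorter stretch was seen in width and in the window alike.

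Gains were smaller. CECR2, a bromodomain protein of ISWI-type remodelling complexes, had 2622 bp within 2 kb in the knockdown, against 1907 bp in the control, and its whole peak was 4490 bp wide in the knockdown, against 1907 bp in the control (log2 ratio 1.24). PELI1, a ubiquitin ligase of Toll-like receptor signalling, had 2088 bp in the knockdown, against 1497 bp in the control. PTPN4, a tyrosine phosphatase, had 2578 bp in the knockdown, against 2023 bp in the control. Acetylation reached farther to both sides in the knockdown at CECR2 and PTPN4. At PELI1 it did so downstream (1444 bp in the knockdown, against 801 bp in the control) but not upstream (643 bp, against 695 bp). SAMD10 filled the window in the knockdown, with 4000 bp, and had 3422 bp in the control. LRRC75A had 1716 bp in the knockdown, against 1207 bp in the control. The sixth member by gain, CHST1, had a peak in the knockdown alone.

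Acetylation was missing in 1 or both libraries at 10 members, with SMARCB1 values from 8.98 to 22.2. A peak in the knockdown alone was found at 2 members (0.985%), beside 1.15% of all SMARCB1 peaks, and in the control alone at 4 members (1.97%), beside 2.72%. CHST1, a keratan sulfate sulfotransferase, had 501 bp in the knockdown, against 0 bp in the control, where the nearest peak was 138541 bp away. KCNIP1, a potassium channel-interacting protein, had 501 bp in the knockdown, against 0 bp in the control. Both knockdown peaks had the narrowest width in that list, 501 bp.

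INPP4B, an inositol polyphosphate 4-phosphatase, had 0 bp in the knockdown, where the nearest peak was 27816 bp away, and 1443 bp in the control. FAM43B had 0 bp in the knockdown, against 629 bp in the control. SDC2 had 0 bp in the knockdown, against 653 bp in the control. INPP4B was therefore the widest of these 3 losses, and the other 2 control peaks were narrow. RAB3A, a GTPase of synaptic vesicle release, had no overlapping peak in the knockdown, against 2522 bp in the control. Its knockdown peak began 125 bp from the SMARCB1 peak, and the acetylated length within 2 kb was 1468 bp in the knockdown, against 2418 bp in the control, so RAB3A kept acetylation nearby.

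No H3K27ac peak overlapped 4 members in either library (1.97%), beside 28.3% of all SMARCB1 peaks and 2.69% of the promoter-TSS class. PITX3, a homeobox factor of lens and midbrain dopamine neurons, had the highest SMARCB1 value of these, 22.2 (rank 17 of 203), at chr10:102240946-102241733. Its nearest acetylated peak was 2802 bp away in the knockdown, against 1640 bp away in the control. AGRP, the agouti-related neuropeptide, at chr16:67483397-67483896, had its nearest peak 1287 bp away in the knockdown, against 1213 bp away in the control. Acetylation thus lay within a few kilobases of these 2 peaks. SPSB4, a SOCS-box protein, at chr3:141051425-141051924, had none within 108073 bp in the knockdown, against 108047 bp in the control. SMPD3, a neutral sphingomyelinase, at chr16:68448142-68448641, had none within 81305 bp in the knockdown, against 81171 bp in the control.

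The 10 members of highest SMARCB1 value were acetylated in both libraries. C17orf58, an uncharacterised gene, led with 39.1 at chr17:67992949-67994087, and its acetylated peak was 2090 bp wide in the knockdown, against 2322 bp in the control. MYO1D, a class I myosin, followed with 33.3, and 1174 bp in the knockdown, against 1298 bp in the control. PITX1, a homeobox factor of hindlimb and pituitary, had 32.7, and 2161 bp in the knockdown, against 2150 bp in the control. The related PITX3, by contrast, had no acetylation in either library. DCBLD2 had 32.2, and 5679 bp in the knockdown, against 7844 bp in the control. PTP4A2, a prenylated phosphatase, had 31.2 and the widest acetylated peak of the 10, with 9295 bp in the knockdown, against 9843 bp in the control. UBE3A, the ubiquitin ligase affected in Angelman syndrome, had 31.2, and 2331 bp in the knockdown, against 2552 bp in the control. XXYLT1, a xylosyltransferase acting on Notch, was 1 of 2 among the 10 with a wider peak in the knockdown, at 2752 bp in the knockdown, against 2389 bp in the control. PFKFB3, which makes the glycolytic activator fructose 2,6-bisphosphate, had 29.6, and 1992 bp in the knockdown, against 2255 bp in the control. PIM3, a serine/threonine kinase, had 27.5, and 4200 bp in the knockdown, against 6530 bp in the control, and its centre lay 160 bp upstream of the listed start (-160). NEURL1B, a ubiquitin ligase of Notch ligands, had 27.5, and 1396 bp in the knockdown, against 1517 bp in the control.

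Few members belonged to the gene lists looked up. Of 15 lists, 8 held members, which came to 12 of 203 (5.91%), against 7.01% of promoter-TSS peaks and 8.98% of all SMARCB1 peaks. The 79 cytosolic ribosomal protein genes held no 5' UTR peak, while 59 of them had a SMARCB1 peak of some class and 24 had a promoter-TSS peak. The lists of translation factors, actin cytoskeleton, ubiquitin and proteasome, SWI/SNF subunits, YAP and TEAD targets and cell cycle held none either. These lists are short, with 36 genes for ubiquitin and proteasome and 39 for cell cycle. They leave out members such as the ubiquitin ligases UBE3A and PELI1 and the cell cycle repressor E2F7. The 5' UTR class also held only 203 of 4453 SMARCB1 peaks, so a count of 0 does not show that a gene group lacked such peaks.

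Membrane receptors and kinases held the most, 4 members. MAP2K1 and MAP2K2 encode MEK1 and MEK2, the kinases that activate ERK. The acetylated peak at MAP2K1 was 2503 bp in the knockdown, against 2575 bp in the control. At MAP2K2 it was 2184 bp in the knockdown, against 2093 bp in the control. FYN, a Src-family kinase, had 1820 bp in the knockdown, against 2864 bp in the control, past 1.5-fold lower. ABL2, a tyrosine kinase related to ABL1, had 6369 bp in the knockdown, against 6797 bp in the control. Of these kinases FYN alone passed the 1.5-fold mark. GCLC and GCLM, the catalytic and modifier subunits of the first enzyme of glutathione synthesis, were the members of the NRF2 list. GCLC had 1369 bp in the knockdown, against 1904 bp in the control. GCLM had 2344 bp in the knockdown, against 1843 bp in the control. The subunits of 1 enzyme differed in opposite directions, both within 1.5-fold. Among all members with a peak in both libraries, 75.1% were narrower and 24.9% wider in the knockdown.

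The other lists held 1 member each. PFKFB3 stood for glycolysis and hypoxia and PDIA4 for chaperones, both described above. SRSF4, a splicing factor, had 3470 bp in the knockdown, against 3731 bp in the control. KAT6B, a histone acetyltransferase, had 2934 bp in the knockdown, against 3311 bp in the control. TIMP3, an inhibitor of metalloproteinases, had 1147 bp in the knockdown, against 1188 bp in the control. All 3 differed little between the libraries. DUSP1, a phosphatase of MAP kinases, was assigned only as the nearest gene, because its peak centre lay outside any coding record. The acetylated peak there was 2260 bp in the knockdown, against 2867 bp in the control.

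Further related genes, chosen after their symbols were seen, each carried a 5' UTR peak. The kinesin-1 heavy chain KIF5A had 903 bp in the knockdown, against 1066 bp in the control. KIF5B had 2242 bp in the knockdown, against 2721 bp in the control. RALGAPA1 and RALGAPB, subunits of the GTPase-activating complexes for Ral, were narrower too. RALGAPA1 had 1034 bp in the knockdown, against 1138 bp in the control. RALGAPB had 1182 bp in the knockdown, against 1363 bp in the control. Among nuclear transport genes, the protein exportin XPO1 had 3508 bp in the knockdown, against 4997 bp in the control, and the tRNA exportin XPOT had 2619 bp in the knockdown, against 3105 bp in the control. RANGAP1, which activates the GTPase of Ran, went the other way, with 10435 bp in the knockdown, against 9777 bp in the control. LMNA, which encodes lamins A and C, had the widest acetylated peak of all members in both libraries, 21611 bp in the knockdown, against 21475 bp in the control.

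The promoters behind the members were rich in G and C. For 162 member genes the RefSeq table gives 300 bases, from 250 before to 50 after a start within 2000 bp of the peak. Their median content of G and C was 70.7%, against 71% for 952 promoters of promoter-TSS peaks and 62.3% for 22011 promoters of coding genes. The GC box GGGCGG, searched on both strands as all motifs were, stood in 133 of 162 member promoters (82.1%, 75.5 to 87.2%), against 86.1% of promoter-TSS promoters and 56.3% of all. MYO1D and PFKFB3, shown above, held 6 GC boxes each, counted without overlap. The TATA box TATAAA stood in 3.70% of member promoters, against 3.15% of promoter-TSS promoters and 9.49% of all. CCAAT stood in 34.6% of member promoters, against 34.8% of promoter-TSS promoters and 34.7% of all. Member promoters thus shared the base composition of the promoter-TSS class, and over 300 bases the shares with CCAAT were alike. In the last 100 bases before the start, CCAAT stood in 25.9% of member promoters (19.8 to 33.2%), against 22.1% of promoter-TSS promoters and 19.5% of all (19.0 to 20.1%), with overlapping intervals.

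Other motifs stood in few member promoters. CCGGAAG was found in 16.7% (11.7 to 23.2%), against 19.3% of promoter-TSS promoters and 12.7% of all, with 3 matches at CPT2, a mitochondrial carnitine palmitoyltransferase, and 2 at XPOT. TGACGTC was found in 6.17%, against 5.46% of promoter-TSS promoters and 4.07% of all, with 2 matches at RALGAPA1. The AP-1 motif TGANTCA was found in 2.47%, against 4.52% of promoter-TSS promoters and 6.16% of all. The TEAD motif GGAATG was found in 6.17%, against 7.67% of promoter-TSS promoters and 12.2% of all. CACGTG was found in 7.41%, against 12.1% of promoter-TSS promoters and 8.32% of all. AAGATGG was found in 5.56%, against 7.04% of promoter-TSS promoters and 6.06% of all, and GCATGCG in 4.94%, against 6.09% of promoter-TSS promoters and 4.60% of all. A start that begins with C and goes on with 4 bases of C or T, as in mRNAs with a 5' terminal oligopyrimidine tract, was listed for 4 of 162 members (2.47%), against 5.15% of promoter-TSS promoters and 4.54% of all. These were ELOVL5, NLRX1, MAP2K2 and ALKBH7. A match is a description of these letters and shows no binding. Member promoters and all promoters differed in base composition (median G and C 70.7% and 62.3%). The part of this in the differences of motif shares, GGGCGG and TATAAA included, was not tested.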

How the data were processed

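SMARCB1 and H3K27ac ChIP-seq peak lists of SK-Hep1 cells were analysed, with 1 library per group taken from the sample titles. An input library is labelled and was not analysed here. The deposited values are peak positions, not counts. Reads were processed with Bowtie2 and HOMER on hg38, per the submitters' processing notes. Per the file headers, HOMER called each H3K27ac library separately in its histone style, both against the control input, requiring 4-fold signal over input, from peaks of 500 bp at least 1000 bp apart that were stitched into regions. Copy number or open chromatin particular to the knockdown cells was therefore not subtracted. The sources used here do not give the settings or depth of the SMARCB1 list, and its score per peak, the authors' own as deposited, was used only to describe and rank peaks.

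From these lists, overlaps (at least 1 base), distances, widths and covered lengths were computed in Python 3.11.15 with NumPy 2.4.6, pandas 2.3.3 and SciPy 1.17.1, with code tested on simulated data. Width is the summed length of the acetylated peaks that overlap a member. Starts, gene records and promoters came from RefSeq tables of GRCh38.p14; starts of 32 member genes are not used here. Genes were named by fixed rules: the 10 highest SMARCB1 values, members without H3K27ac, the 6 largest gains and 6 largest losses of covered length, the 3 nearest and 3 farthest from a control edge, and up to 4 members of each list. Genes past 1.5-fold and related genes were added after their values or symbols were seen. The members and lists were chosen with earlier results of these data known.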

Additional observations from a re-analysis of the deposited data

How the results depend on the processing

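No difference between the libraries changed sign. In all, 35 recomputed values moved by less than their interval (list counts by less than 1.5 times) and 14 by more. Many of the 35 could hardly move, so their number is no measure of robustness. The list counts compare rules for naming the gene that gave the same gene for 195 of 203 members. With the wider 50% of each H3K27ac list, the share of members that overlapped was 64.0% in the knockdown and 70.4% in the control, since fewer acetylated peaks remained. Among the 50% of members with the higher SMARCB1 value it was 99.0% in both libraries. The median difference in acetylated length, knockdown minus control, was -193 bp within 5 kb and 0 bp within 1 kb, and the cause was not tested. The 1 kb window cannot register the shift of an edge that lies beyond 1 kb in both libraries. Median reach in the control was 1081 bp upstream and 1141 bp downstream. In the last 100 bases before the start, shorter than the main 300, motifs stood in fewer member promoters: GGGCGG in 64.8%, CCAAT in 25.9%, CCGGAAG in 9.26%, CACGTG in 3.70%, TGACGTC in 3.09%, TATAAA in 1.23%, GGAATG in 0.617% and AAGATGG in 0.617%. In that window TATAAA was rarer than in promoter-TSS promoters (2.31%), where over 300 bases it was more frequent, and CCAAT was more frequent than in all promoters (19.5%), where over 300 bases it was level. TATAAA stood in 2 of 162 member promoters over 100 bases (0.339 to 4.39%) and in 6 over 300 bases (1.71 to 7.84%). These intervals hold the promoter-TSS shares, 2.31% and 3.15%, so neither direction is clear. For CCAAT in the 100 bases, the intervals of members and of all promoters overlapped. No paired analysis was possible because each group has 1 library, and for the same reason no library could be left out. Widths depend on stitching, and on depth and fragment length, which differ between the libraries and cannot be told apart from the shRNA.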
